A study of Mus musculus with 8 samples.

Results

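The genes described here encode the protein subunits of the cytosolic ribosome, and were followed in the hearts of mice with a conditional gene deletion and of their littermates. A gene was taken if its symbol on the array was Rplp0, Rplp1 or Rplp2, or consisted of Rpl or Rps, digits and at most 1 letter. Rpl3 and Rpl3l were left out by that rule. Each gene was read from the probe set, a group of short probes on the array, that had the highest mean signal over the arrays among those naming that gene alone. This gave 44 of the 18193 genes tested, 21 of them of the small subunit (Rps) and 23 of the large subunit (Rpl and Rplp). A further 27 genes of the rule, Rplp1 among them, lay only on probe sets that name several genes and are described below as probe sets, not as genes. Of the 44 members, 13 were read from probe sets with names ending in x_at and 2 from s_at, whose probes can match other sequences. They include Rps27l and Rps2 (x_at) and Rps9 (s_at). With such probe sets of shared sequence left out, 39 members remained.

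Total RNA came from whole hearts of 8 female mice, with 1 Affymetrix Mouse Genome 430 2.0 array per heart. The 4 groups were wild-type (WT) mice at 4 weeks, knock-out (KO) mice at 4 weeks, WT mice at 10 weeks and KO mice at 10 weeks, with 2 mice in each. The KO mice carried a conditional knock-out under the muscle creatine kinase (MCK) driver, which acts in heart and skeletal muscle cells, so that other cells of the heart keep the gene. KO and WT mice of an age were littermates, and in a comparison of the ages, age and litter cannot be told apart. The number of arrays, 2 a group, limits the precision of every value below.

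Each cytosolic ribosome joins a small subunit, which binds the messenger RNA and decodes it, to a large subunit, which forms the peptide bonds and holds the tunnel through which the new chain leaves. The large subunit carries a stalk of acidic P proteins that recruits elongation factors. Messenger RNAs of ribosomal proteins begin with a tract of C and T (U in the RNA) called the 5′ terminal oligopyrimidine or TOP motif, through which the kinase mTOR and the RNA-binding protein LARP1 set how strongly they are translated. Arrays measure the amount of messenger RNA and not its translation.

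The start regions of the genes were searched for runs of C and T. RefSeq promoter entries on GRCm38.p6 matched 38 of the 44 genes. An unbroken run of 8 or more C or T on the gene's strand, within 50 bases on either side of the annotated start, was found in 31 of the 38 (81.6%), against 9642 of all 27026 entries (35.7%). Such a run can begin anywhere in that window, from position -47 for Rps16 to position 40 for Rps2, relative to the start, so that the count is not one of TOP motifs. The letters CCGGAAG, the core of an ETS-family motif, stood on at least 1 strand in the 300 bases of the entry for 19 of the 38 genes (50%), against 2469 of all entries (9.14%). The 6 sequences below belong to the members with the smallest p-values between KO and WT hearts at 10 weeks among those with an entry. Each runs 5′ to 3′ on the gene's strand over 60 bases, 40 before the annotated start and 20 from it, and capitals mark the longest run of C and T in that stretch, or the first where a run of the same length follows, as in Rps27l. The runs are 10 bases long in Rplp2, 14 in Rpl4, 10 in Rps6, 9 in Rps27l, 9 in Rps9 and 6 in Rps3. The stretches of 60 bases lie at chr7:141447611-141447670 (+) for Rplp2, chr9:64173347-64173406 (+) for Rpl4, chr4:86857348-86857407 (-) for Rps6, chr9:66946046-66946105 (+) for Rps27l, chr7:3704001-3704060 (+) for Rps9 and chr7:99483690-99483749 (-) for Rps3.
Rplp2: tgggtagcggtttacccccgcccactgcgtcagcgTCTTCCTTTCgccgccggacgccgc
Rpl4: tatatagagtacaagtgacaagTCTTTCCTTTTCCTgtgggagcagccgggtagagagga
Rps6: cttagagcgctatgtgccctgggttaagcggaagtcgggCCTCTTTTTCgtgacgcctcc
Rps27l: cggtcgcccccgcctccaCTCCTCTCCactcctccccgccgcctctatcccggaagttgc
Rps9: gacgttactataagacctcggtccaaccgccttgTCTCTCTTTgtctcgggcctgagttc
Rps3: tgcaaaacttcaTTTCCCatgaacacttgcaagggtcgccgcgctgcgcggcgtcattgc
Members that were higher, lower or not called at 10 weeks all appear among these, and a match of letters is a description of the sequence only.

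The deposited intensities were put on the log2 scale, where a difference of 1 is a doubling. Array medians lay between 34.3 and 37.4 on the linear scale. Signals are given per probe set, and because probe sets differ in their probes they do not rank the genes by expression. 32 of the 44 members had a mean log2 signal above 11, and 12 lay lower. The brightest probe sets used were those of Rps29 (13.41), Rps24 (12.93) and Rpl37a (12.88), and the dimmest those of Rps16 (3.28), Rpl39l (3.94) and Rpl14 (4.97). Probe sets that name Rps16 together with other genes read 11.93 and 13.07. Differences were tested with limma, with 1 mean per group over all 8 arrays, and genes were called where the p-value, adjusted by Benjamini-Hochberg over the 18193 genes, was under 0.05. Values after ± are standard errors of a difference.

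At 4 weeks the ribosomal protein genes of KO hearts lay close to those of WT hearts. 0 of the 44 were called by limma, and 0 had an unadjusted p under 0.05, while 5 of all genes were called (0.0275%) and 679 had an unadjusted p under 0.05 (3.73%). The median difference, KO minus WT, was 0.05, the range was -0.22 to 0.36, and 39 of the 44 differences were within 0.2 of zero. The 95% confidence interval of every one of the 44 differences lay within a doubling in either direction. The differences leaned to one side: 36 of 44 were above 0, against 53.4% of all genes, where the median was 0.01. With arrays centred on their medians 29 of the 44 were above 0, with a median of 0.03. Without replicate 1 of the 4-week WT hearts, or without replicate 1 of the 4-week KO hearts, 30 were. Both KO arrays lay above both WT arrays for 21 members (47.7%, against 19.4% of all genes), and below them for 3, Rplp2, Rps2 and Rps9 (6.82%, against 17.5%).

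The 4 members with the smallest p at 4 weeks were Rps4l, Rpl39l, Rps16 and Rpl12. Rps4l, a paralog of the small-subunit gene Rps4x, read 7.77 and 7.88 in WT and 8.15 and 8.22 in KO hearts, so both KO hearts were above both WT hearts. Its difference was 0.36 ± 0.17 (limma adjusted p 0.999). Rpl39l, a paralog of Rpl39, which lines the exit tunnel of the large subunit, differed by 0.21 ± 0.12, Rps16 of the small subunit by 0.17 ± 0.12 and Rpl12, which sits at the base of the stalk, by 0.22 ± 0.18, all with an adjusted p of 0.999 in limma. The value of Rpl12 was -0.08 without replicate 1 of the 4-week KO hearts.

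At 10 weeks 3 of the 44 genes differed between KO and WT hearts: Rpl4 and Rps4l were higher in KO hearts and Rplp2 was lower. That is 6.82% of the members, against 12.1% of all genes called in either direction (limma, 2199 genes). 2 members were called higher (5.19% of all genes) and 1 lower (6.89%), and 8 members had an unadjusted p under 0.05 (18.2%, against 23.6%). The median difference was -0.15, with quartiles of -0.25 and 0.01, and 12 members were above 0 against 50.8% of all genes, but quantile normalization of the log2 values again moved the median to 0.03 with 27 members above 0. Over all genes the median was 0.00. Differences ran from -0.98 to 0.64, 24 of 44 were within 0.2 of zero, and the 95% confidence intervals of 41 lay within a doubling in either direction. The count of 3 was not stable when 1 array was left out. Without either 4-week WT heart the 10-week differences of Rpl4 (0.63) and Rps4l (0.64) stayed the same. There the spread of every gene was estimated from fewer arrays. Without replicate 1 of the 10-week WT hearts these differences were 0.47 and 0.67, and without replicate 2 of the 10-week KO hearts 0.55 and 0.36.

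**Figure D1:**
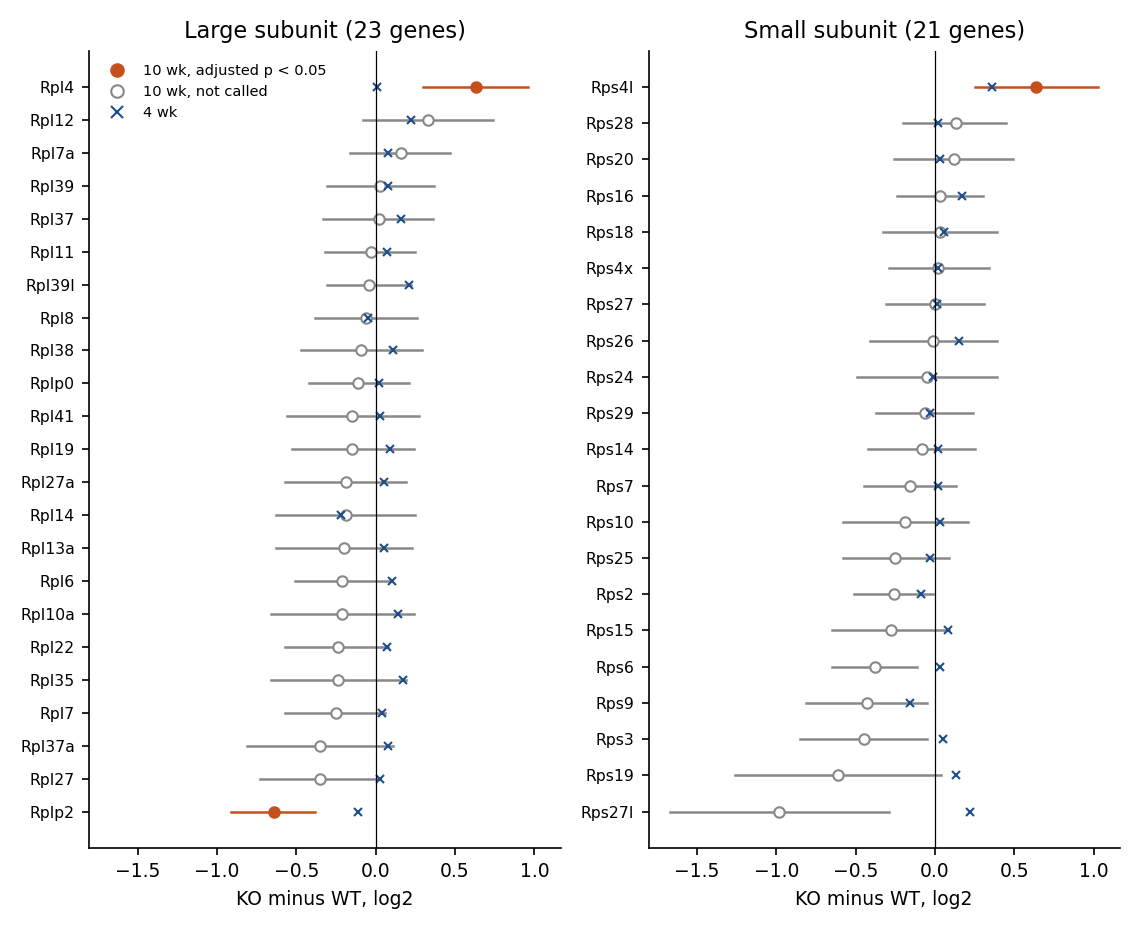
KO minus WT difference of each of the 44 genes, log2, by subunit and in the order of the 10-week difference. Circles are 10-week differences with 95% confidence intervals as lines, filled where the limma adjusted p was under 0.05 (Rpl4, Rps4l and Rplp2), and crosses are 4-week differences, which lie between -0.22 and 0.36.

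Among the P proteins of the stalk, Rplp2 was the member with the smallest p. Its log2 signal was 11.82 and 11.83 in 4-week WT hearts, 11.76 and 11.66 in 4-week KO hearts, 11.95 and 11.81 in 10-week WT hearts, and 11.24 and 11.24 in 10-week KO hearts. Both 10-week KO hearts stood below the other 6, and the groups did not overlap at either age. The 10-week difference was -0.64 ± 0.12 (95% confidence interval -0.91 to -0.38, limma adjusted p 0.00712). Leaving out any 1 array gave -0.71 to -0.58, with adjusted p-values of 0.00597 to 0.0453. A fit to the 10-week arrays alone gave an adjusted p of 0.0563. Rplp0, to which the other P proteins attach, read 12.76 and 12.76 in 10-week WT and 12.84 and 12.47 in 10-week KO hearts. These overlap, and its difference was -0.11 ± 0.14 (adjusted p 0.743 in limma). It was 0.09 after quantile normalization again and 0.08 without replicate 2 of the 10-week KO hearts. Rplp1 had no probe set of its own. The probe set that names it together with a second gene read 12.71 and 12.76 in 10-week WT and 13.23 and 13.04 in 10-week KO hearts, a difference of 0.40 ± 0.12 that was not called (limma adjusted p 0.093).

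Rpl4, whose long loop reaches into the exit tunnel of the large subunit, was higher in 10-week KO hearts. It read 12.55 and 12.57 in 4-week WT, 12.66 and 12.48 in 4-week KO, 12.22 and 12.55 in 10-week WT, and 12.94 and 13.10 in 10-week KO hearts. The 2 KO hearts at 10 weeks were the highest of the 8, and replicate 1 of the 10-week WT hearts was the lowest. The difference was 0.63 ± 0.15 (95% confidence interval 0.30 to 0.96, limma adjusted p 0.0209). It was not called without replicate 1 of the 10-week WT hearts (0.47, adjusted p 0.0827), without replicate 1 or 2 of the 10-week KO hearts (0.71 and 0.55, adjusted p 0.0626 and 0.125), without either 4-week WT heart (adjusted p 0.0512) or with the 10-week arrays alone (adjusted p 0.0969).

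Rps4l was the third called member. In 10-week WT hearts it read 7.62 and 7.56, and in 10-week KO hearts 7.95 and 8.51. The KO hearts were above both WT hearts at both ages, and replicate 2 of the 10-week KO hearts was the highest array. The difference at 10 weeks was 0.64 ± 0.17 (95% confidence interval 0.25 to 1.03, limma adjusted p 0.0418). Over the 8 fits that each left out 1 array, the adjusted p ran from 0.012 to 0.224, and the call was lost in 7 of them, with a difference of 0.36 without replicate 2 of the 10-week KO hearts. It was kept without replicate 1 of those hearts (0.92). The call was also lost with arrays centred on their medians (adjusted p 0.0707), with array weights (adjusted p 0.0874) and with the 10-week arrays alone (adjusted p 0.156). Its paralog Rps4x read 12.54 and 12.44 in WT and 12.68 and 12.35 in KO hearts at 10 weeks. These overlap, with a difference of 0.02 ± 0.14 that ran from -0.15 to 0.19 when 1 array was left out.

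**Figure D2:**
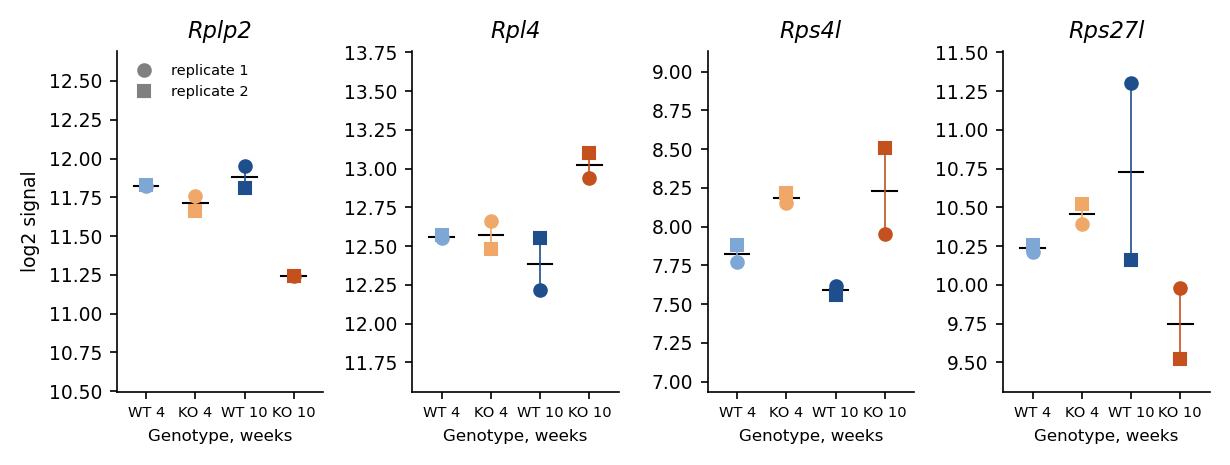
log2 signal of Rplp2, Rpl4, Rps4l and Rps27l on each array, by genotype and age in weeks, with circles for replicate 1, squares for replicate 2 and a bar at the group mean; each panel spans its own range of signal. In 10-week KO hearts Rplp2 read 11.24 on both arrays, below the other 6, and Rpl4 read 12.94 and 13.10, above the other 6.

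Rps27l, a small-subunit paralog of Rps27 known as a target of the transcription factor p53, had the largest difference of the family without being called. It read 10.21 and 10.26 in 4-week WT, 10.39 and 10.52 in 4-week KO, 11.30 and 10.16 in 10-week WT, and 9.98 and 9.52 in 10-week KO hearts. Both KO hearts at 10 weeks lay below the other 6, and replicate 1 of the 10-week WT hearts stood above all others. The difference was -0.98 ± 0.31 (95% confidence interval -1.67 to -0.29, limma adjusted p 0.0741). It was -0.41 without replicate 1 of the 10-week WT hearts, and -1.55 with an adjusted p of 0.000499 without replicate 2. Both further probe sets of Rps27l gave -0.79 and -0.86. Rps27 itself read 6.06 and 6.04 in WT and 6.10 and 6.01 in KO hearts at 10 weeks, a difference of 0.00 ± 0.14. That probe set is dim, with a mean log2 of 5.92. A brighter one (mean 12.46) that names Rps27 together with another gene gave -0.22 ± 0.15. It read 12.66 and 12.52 in WT and 12.55 and 12.19 in KO hearts, which overlap.

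Of the small-subunit members with an unadjusted p under 0.05 at 10 weeks, 4 remain, all below 0 and none called by limma. Rps6, the substrate of the S6 kinases downstream of mTOR, read 7.55 and 7.41 in WT and 7.07 and 7.13 in KO hearts. The groups did not overlap, and the difference was -0.38 ± 0.12 (adjusted p 0.0725). Brighter probe sets that name Rps6 together with another gene gave 0.04, 0.05 and -0.02 at mean signals of 12.63, 12.50 and 12.46, and the one further probe set of Rps6 alone gave 0.14 at a mean signal of 3.19. Rps9, Rps3 and Rps2 lie at the entry of the messenger RNA channel, and their differences were -0.43 ± 0.17 (adjusted p 0.152), -0.45 ± 0.18 (adjusted p 0.155) and -0.26 ± 0.11 (adjusted p 0.202), with both KO arrays below both WT arrays for each. Rps19, a gene mutated in Diamond-Blackfan anaemia, read 12.17 and 11.49 in WT and 11.68 and 10.76 in KO hearts, which overlap, and differed by -0.61 ± 0.29 without being called.

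The other members that have a paralog were not called. Rpl22 differed by -0.24 (adjusted p 0.374 in limma), Rpl7 by -0.25 (adjusted p 0.333), Rpl39 by 0.03 (adjusted p 0.94) and Rpl39l by -0.04 (adjusted p 0.886). Rpl7l1, the nucleolar paralog of Rpl7 that the symbol rule leaves out, read 8.63 and 8.41 in WT and 7.44 and 7.73 in KO hearts at 10 weeks. It was lower by -0.94 ± 0.14 in log2 (limma adjusted p 0.00294), and both KO hearts lay below both WT hearts. It was 1 of 4 measured paralogs outside the rule, and the other 3 were not called. The members read from the brightest and dimmest probe sets were not called either: Rps29 differed by -0.06, Rps24 by -0.05, Rpl37a by -0.35, Rps16 by 0.03 and Rpl14 by -0.19.

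For 12 members (27.3%, against 23.5% of all genes) both 10-week KO arrays lay below both WT arrays, and for 3 (6.82%, against 23.7%) above them. The 3 were Rpl4, Rps4l and Rpl12, the last on a dim probe set (mean log2 5.22). On brighter probe sets that name Rpl12 together with other genes the 10-week groups overlap. The differences there were -0.06 at a mean of 10.93 and 0.13 at 11.98. The subunits had similar medians, -0.08 over 21 small-subunit and -0.15 over 23 large-subunit genes. The median was -0.15 over the 32 members with a mean log2 above 11 and -0.02 over the 12 others. Another 293 genes of the array had a mean log2 above 11. Their median was -0.25, with 25 called higher and 96 lower. All of these medians are taken before quantile normalization again, under which the median of the family had the opposite sign.

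The family as a whole differed between mice of the same group at 10 weeks. The level of the family on an array was taken as the median over the 44 genes of the log2 signal minus the gene's own mean. It was -0.07 and -0.04 in 4-week WT hearts, -0.01 and 0.02 in 4-week KO hearts, 0.26 and -0.03 in 10-week WT hearts, and 0.09 and -0.20 in 10-week KO hearts. Replicate 1 of the 10-week WT hearts stood highest and replicate 2 of the 10-week KO hearts lowest, and the groups of 10 weeks overlap. The same median over all genes stayed between -0.03 and 0.04. For 76 mitochondrial ribosomal proteins it was 0.29 and 0.01 on the 10-week WT arrays, and -0.54 and -0.41 on the 10-week KO arrays. The 4 measured paralogs outside the rule were at 0.2 and -0.01 in WT and 0.13 and -0.31 in KO hearts. Genes of ribosome assembly, initiation factors and the mTOR and Myc list went the other way, with replicate 2 above replicate 1 in both 10-week groups. The within-group SD of the family level, pooled over the groups of both ages, was 0.15, as large as the 10-week median difference. The close 4-week pairs lower this SD, and the 10-week pairs lay further apart than it shows.

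25 of the 44 genes had their highest signal on replicate 1 of the 10-week WT hearts (56.8%, against 25.4% of all genes), and 24 had their lowest on replicate 2 of the 10-week KO hearts (54.5%, against 9.83%). Replicate 1 exceeded replicate 2 by a median of 0.29 in WT hearts and 0.28 in KO hearts at 10 weeks, with 34 and 35 of the 44 genes above 0, while at 4 weeks the medians were -0.01 and 0.00. Between single mice of 10 weeks, KO minus WT was -0.15 for the pair of replicates 1, -0.16 for the pair of replicates 2, 0.15 for KO replicate 1 against WT replicate 2 and -0.40 for KO replicate 2 against WT replicate 1. The sign of the family's difference thus depended on which mice were set against each other. It was 0.03 without replicate 1 of the 10-week WT hearts, 0.01 without replicate 2 of the 10-week KO hearts and 0.15 without both. 4 members went the other way, Rpl4, Rpl7a, Rpl8 and Rpl12, with their lowest signal on the WT array on which 25 others were highest (9.09%, against 19.9% of all genes). Rpl12 was read from a dim probe set, with a mean log2 of 5.22. Brighter probe sets that name it together with other genes, at means of 10.93 and 11.98, went with the family. They read 11.42 and 12.40 on that array, against 10.74 and 11.74 on replicate 2 of the 10-week WT hearts.

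**Figure D3:**
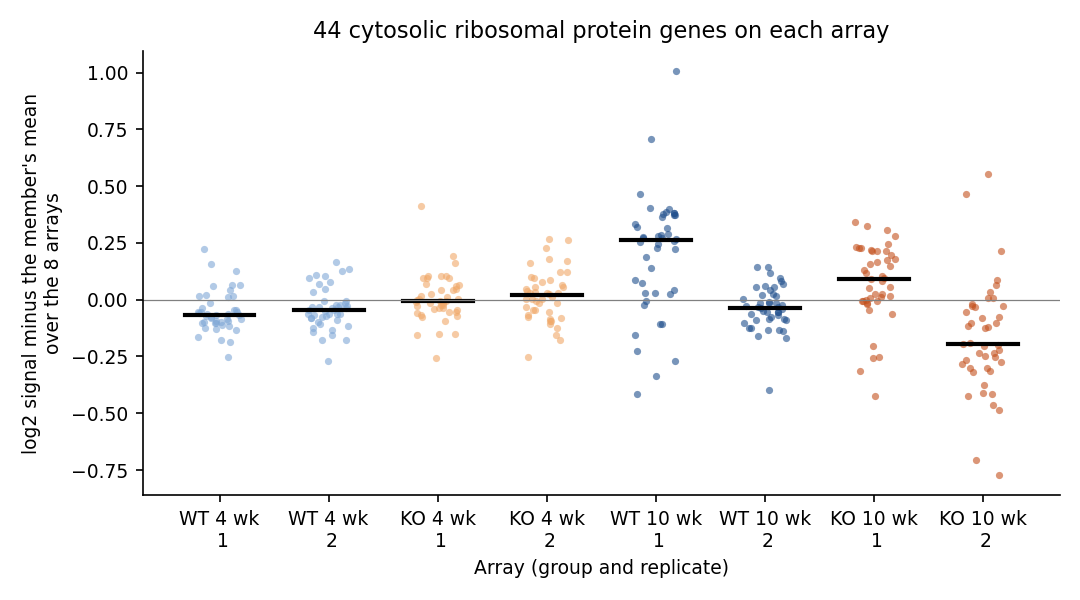
log2 signal of each of the 44 genes minus its mean over the 8 arrays, by array, with a bar at the median of the genes. The medians are 0.26 and -0.03 on the 10-week WT arrays and 0.09 and -0.20 on the 10-week KO arrays, so the groups overlap at that age.

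Markers of some other tissues and cells differed between mice of the same group, and their part in the result was not tested. On replicate 1 of the 10-week WT hearts the 7 measured liver markers had a median deviation of 2.25, against -0.73 on replicate 2, and the log2 of their summed signal was 12.32 against 9.39. Over the 8 arrays that sum ran from 8.66 to 12.32, and replicate 2 of the 4-week KO hearts, with a family level of 0.02, read 12.25. The 7 kidney markers were at 0.34 and 0.02 on the 10-week WT arrays, and their sum at 10.06 and 8.29. The 10-week KO arrays hardly differed in either list. Replicates 1 and 2 were at -1.17 and -1.2 for liver and at -0.1 and -0.09 for kidney markers. The cardiomyocyte markers were at -0.33 and 0.10 on those WT arrays and at -0.20 on both 10-week KO arrays. The 4 measured erythroid markers were at 0.28 and 0 on those WT arrays and at -0.06 and -0.47 on the 10-week KO arrays. On the 4-week arrays the erythroid markers ran from -0.16 to 0.26. The highest of these was replicate 1 of the 4-week KO hearts, with a family level of -0.01. Between KO and WT hearts at 10 weeks 8 of 10 fibroblast and 6 of 11 macrophage markers were higher, against 5.19% of all genes. Lower were 3 of 10 cardiomyocyte and 2 of 11 lymphocyte markers, against 6.89%. In addition, 1 of 8 endothelial and 1 of 7 smooth muscle and pericyte markers were higher, and 1 of 4 erythroid and 1 of 7 kidney markers lower. Of 7 atrial markers 1 was higher and 1 lower, and no liver marker was called. At 4 weeks none of the marker lists held a called gene. At that age, where 36 of the 44 ribosomal protein genes lay above 0, 6 of the 7 atrial markers had an unadjusted p under 0.05 in limma, with a median difference of 1.27, and their levels were -1.12 and -0.48 in 4-week WT, -0.22 and 0.75 in 4-week KO, and -0.04 and 0.62 in 10-week WT hearts. In whole hearts fewer cells of a type and less RNA per cell cannot be told apart. As a measure of RNA quality, the control probe sets at the 3′ end of Gapdh lay -0.21 to -0.10 from those at its 5′ end over the arrays, and those of actin 0.25 to 0.46.

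The difference of the differences between the ages was called for 0 of the 44 genes in limma, against 2.08% of all genes, and 4 had an unadjusted p under 0.05, against 13.9%. Its median over the members was -0.18, and -0.03 after quantile normalization again. The 4 genes were Rplp2 (-0.53 ± 0.17, adjusted p 0.166), Rpl4 (0.62 ± 0.21, adjusted p 0.189), Rps27l (-1.2 ± 0.44, adjusted p 0.235) and Rps6 (-0.41 ± 0.17, adjusted p 0.307). The calls of Rplp2, Rpl4 and Rps4l at 10 weeks are therefore not shown to differ from their values at 4 weeks. Without replicate 2 of the 10-week WT hearts Rpl4 and Rps27l were called here (0.79 and -1.77, adjusted p 0.0345 and 0.00309).

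From 4 to 10 weeks 0 of the 44 genes were called in WT hearts by limma, against 0.115% of all genes, and 0 had an unadjusted p under 0.05, against 18.1%. The median was 0.16, with 33 genes above 0 (75%, against 57.2% of all genes), and 0.05 over all genes. The median of the members ran from 0.02 to 0.29 when 1 array was left out. The atrial markers had a median of 1.18 in this comparison, with 0 of 7 called and 5 at an unadjusted p under 0.05, and their part was not tested. Rpl7 (0.30 ± 0.14, adjusted p 0.296), Rpl37 (0.31 ± 0.15, adjusted p 0.31), Rps27 (0.27 ± 0.14, adjusted p 0.32) and Rps3 (0.32 ± 0.18, adjusted p 0.345) had the smallest p. Without replicate 2 of the 10-week WT hearts, which leaves the one in which the family was highest, 3 genes were called, Rpl7, Rps26 and Rps27l. In KO hearts 1 gene was called lower at 10 than at 4 weeks, against 7.07% of all genes lower and 10.5% in either direction. This was Rplp2, at -0.48 ± 0.12 (limma adjusted p 0.033), a comparison that uses the same 10-week KO arrays as the difference from WT. That call was lost, with adjusted p-values up to 0.139, without any 1 of the 4-week arrays or of the 10-week KO arrays. It was also lost after quantile normalization again (-0.29, adjusted p 0.139) and with trend and robust settings (adjusted p 0.0627). The median over the members in KO hearts was -0.07, and ran from -0.19 to 0.06 when 1 array was left out.

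Further probe sets repeat the measurement within the same RNA. 22 of the 44 genes had 53 further probe sets that name them alone. Of the 33 with a mean log2 of at least 8, 29 had the sign of the probe set used at 10 weeks, and the gap between them had a median of 0.08 and a maximum of 0.30. Of the 20 dimmer ones 10 had the same sign, and the largest gap was 1.1, on a probe set of Rpl22 whose mean log2 of 7.99 lies just under the bound of 8, which was chosen after the values were seen. Tested singly, 3 further probe sets were called by limma at 10 weeks. One of Rpl13a was lower by -1.09 (adjusted p 0.00194), where the one used gave -0.20. One of Rpl22 was higher by 0.86 (adjusted p 0.0216) and one of Rps20 by 0.52 (adjusted p 0.0276), where those used gave -0.24 and 0.12.

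**Figure D4:**
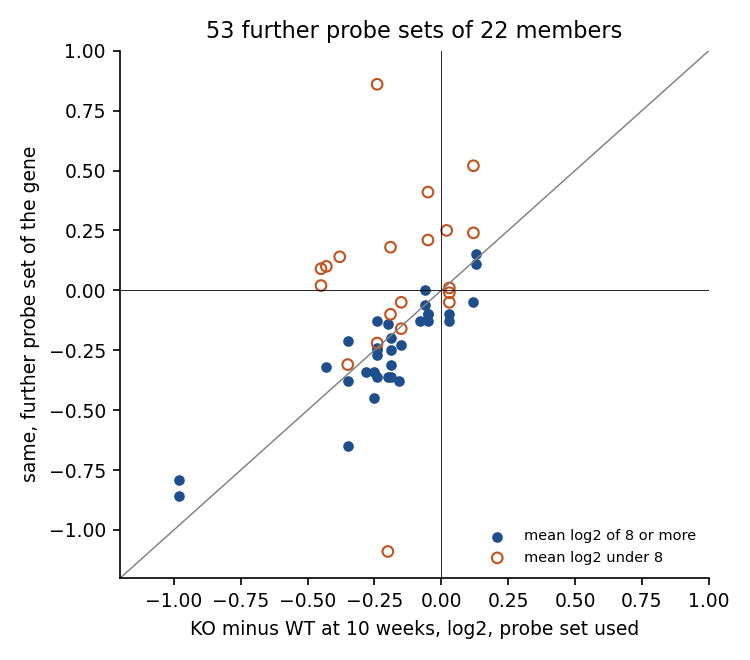
KO minus WT difference at 10 weeks, log2, on each of 53 further probe sets of 22 genes (vertical) against the probe set used (horizontal), with the line of equality. Filled points, with a mean log2 of 8 or more, lie within 0.30 of the line, and open points, with a mean under 8, lie up to 1.1 from it, the farthest being a probe set of Rpl22 at 7.99.

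108 probe sets name a gene of the rule together with other genes, and cover 42 genes of the rule. Their differences at 10 weeks ran from -1.01 to 0.40 with a median of -0.11, and 0 were called higher and 1 lower in limma. At 4 weeks their median was 0.05 and 0 were called. With these probe sets allowed, the rule found 69 genes. 4 of them were called at 10 weeks (Rpl4, Rplp2, Rps2 and Rps4l) and the median was -0.09.

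Related genes were counted in the same way at 10 weeks, by their role in making ribosomes or in translation, where 5.19% of all genes were called higher and 6.89% lower. Of 22 measured elongation factors and other TOP messenger RNAs, 3 were higher and 4 lower, with a median of -0.01. The elongation factor Eef2 rose by 0.79 (limma adjusted p 0.0284), Hnrnpa1 by 0.71 (adjusted p 0.00691) and Eef1a1 by 0.67 (adjusted p 0.0125), and Eef1d, which reloads Eef1a1 with GTP, fell by 0.67 (adjusted p 0.00808). The count of 7 was 1 without replicate 2 of the 10-week KO hearts, 2 without replicate 1, 3 without either 4-week WT heart and 4 without replicate 1 of the 10-week WT hearts. Of 25 initiation factors 8 were higher and 2 lower, with a median of 0.29. Their level was -0.25 and -0.11 on replicates 1 and 2 of the 10-week WT hearts, and -0.02 and 0.14 on those of the KO hearts. Eif3c rose by 1.47 (adjusted p 0.00313), Eif3a by 1.3 (adjusted p 0.0111), Eif2s2 by 1.13 (adjusted p 0.00141) and the helicase Eif4a1 by 1.12 (adjusted p 0.000582). Without replicate 1 or replicate 2 of the 10-week KO hearts 6 initiation factors were called.

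Of 75 genes of ribosome assembly and the nucleolus 20 were higher and 4 lower, with a median of 0.33. The level of this list was -0.24 and -0.04 on replicates 1 and 2 of the 10-week WT hearts, and 0.13 and 0.27 on those of the KO hearts. Nop58, a core protein of the particles that methylate ribosomal RNA, rose by 1.44 (limma adjusted p 0.0028), Gnl3 (nucleostemin) by 1.43 (adjusted p 0.000815) and Rrp12 by 1.41 (adjusted p 0.00262), while Cmss1 fell by 3.09 (adjusted p 4.1e-05). Without replicate 2 of the 10-week KO hearts the counts were 7 and 2, and without replicate 2 of the 10-week WT hearts 31 and 6. Of 26 genes of RNA polymerase I and its factors 2 were higher and 4 lower, with a median of 0.11. They include Polr3a of polymerase III, which rose by 1.09 (adjusted p 0.039), and subunits shared between polymerases, Polr2f and Polr1d, which fell by 1.07 and 0.93 (adjusted p 0.00448 and 0.00758). Maf1, a repressor of polymerase III, fell by 0.85 (adjusted p 0.00285). Without replicate 1 or 2 of the 10-week KO hearts none of this list was called higher, and 2 or 3 were called lower.

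Of 43 genes of mTOR signalling, TOP regulation and Myc 6 were higher and 3 lower, with a median of 0.03. Eif4ebp1, the inhibitor of cap-dependent initiation that mTOR phosphorylates, rose by 1.51 (limma adjusted p 0.00025), Myc by 1.33 (adjusted p 0.000513) and Mtor by 0.92 (adjusted p 0.0069), and Sesn1 fell by 0.80 (adjusted p 0.0226). Of the list, 4 genes were called without replicate 1 of the 10-week KO hearts, and 5 without replicate 2 or without either 4-week WT heart. Larp1 read 7.64 and 8.37 in WT and 8.06 and 8.37 in KO hearts at 10 weeks, a difference of 0.21 ± 0.22. Of 76 proteins of the mitochondrial ribosome, which is built from other genes, 1 was higher and 43 lower, with a median of -0.63. Mrps24 fell by 1.64 (adjusted p 0.00611), Mrps21 by 1.49 (adjusted p 0.000909), Mrpl36 by 1.45 (adjusted p 0.00272) and Mrps33 by 1.42 (adjusted p 0.00794). 20 were lower without replicate 1 of the 10-week KO hearts, with 1 higher, and 27 without replicate 2. The fibroblast and macrophage markers above also differed at 10 weeks, and their part in these counts was not tested.

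At 4 weeks 0 genes of any of these lists were called by limma, and 7 of the 75 assembly genes, 4 of the mTOR and Myc list, 1 initiation factor and 1 mitochondrial ribosomal protein had an unadjusted p under 0.05. The lists were not tested against each other or against the ribosomal proteins. Their medians at 4 weeks lay between -0.05 and 0.05.

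**Figure D5:**
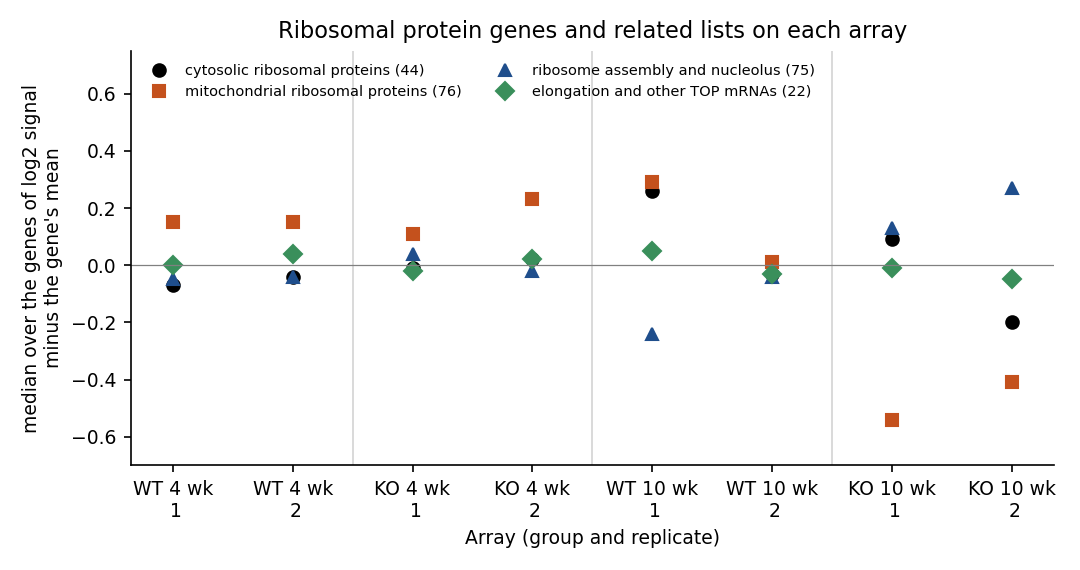
Median over the genes of a list of the log2 signal minus the gene's mean, by array, for cytosolic ribosomal proteins (44 genes, circles), mitochondrial ribosomal proteins (76, squares), ribosome assembly and nucleolus (75, triangles) and elongation factors and other TOP messenger RNAs (22, diamonds). On the 10-week KO arrays the mitochondrial list is at -0.54 and -0.41, the cytosolic list at 0.09 and -0.20.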

How the data were processed

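Heart RNA of 8 mice was extracted with TRIzol and labelled with biotin, per the labels' protocols. The deposited values were probe set intensities on the linear scale, and the submitters' processing notes name GCOS 1.3 and RMA as the authors' tools, without an order or a version of RMA. RMA is meant to make the arrays' distributions alike, so a change shared by most genes would be reduced or not seen. The deposited distributions were not fully alike. Array medians ran from 34.3 to 37.4, and quantile normalization again changed the 10-week median of the family, as given above. log2 of the deposited intensities was taken here, with no pseudocount and no filter on dim probe sets. Of 45101 probe sets 64 controls were left out. Of the other 45037, 34945 name 1 gene in the platform annotation, 932 several and 9160 none, and 1 probe set per gene, the brightest, gave 18193 genes.

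limma 3.58.1 (R 4.3.3) fitted 1 mean per group to all arrays, with eBayes (no trend, not robust), 4 residual and 9.33 total degrees of freedom, two-sided tests and Benjamini-Hochberg adjustment over all genes. The script was tested on simulated data. No 2 arrays were identical. The labels name separate mice, and the replicate numbers were not taken as pairs: same-numbered KO and WT deviations correlated at 0.30 over genes at 4 weeks and 0.23 at 10 weeks, which is 1 independent correlation per age. Over the members alone it was -0.23 and 0.50.

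Members were named by rule: called members (4 by smallest p in comparisons without a call), P proteins, members with paralogs, the 3 brightest and 3 dimmest, and in other lists the 4 called genes of largest difference. Other members and Larp1 were singled out after their values were seen. The members and lists were chosen with earlier results of these data known. Promoter sequences are RefSeq's, on GRCm38.p6. The alternatives were other choices of probe set, filters on dim genes, 2 normalizations, other variance settings, array weights, fewer groups, a replicate block and each array left out. The deleted gene itself is not reported here.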

Additional observations from a re-analysis of the deposited data

How the results depend on the processing

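The count of 3 members called at 10 weeks stayed at 2 to 4 with other probe set rules per gene, filters, normalizations, variance settings and array weights, and Rplp2 was called in each of these. Tested singly, 6 of 97 probe sets of members were called, and with the 10-week arrays alone 0. Without 1 array the count ran from 1 to 5, and without replicate 1 of the 10-week WT and replicate 2 of the 10-week KO hearts together, a choice made after seeing the data, it was 1. The median difference at 10 weeks was 0.03 after quantile normalization again and 0.15 without both arrays, with a range of -0.27 to 0.03 without 1. The difference between ages was called for 1 probe set singly and for 0 to 2 members without 1 array, and its median was -0.03 after quantile normalization again, 0.06 without both arrays and -0.30 to -0.03 without 1. From 4 to 10 weeks 0 to 3 WT calls and 0 to 3 KO calls were made without 1 array. The 1 KO call became 4 for probe sets singly, 2 without probe sets of shared sequence, 0 with trend and robust settings, 2 with array weights and 2 with only the KO groups. With the 10-week arrays alone, calls at 10 weeks were 0 of the elongation and TOP list, 5 initiation factors, 8 assembly genes, 3 of the mTOR and Myc list and 17 mitochondrial ribosomal proteins. The cause of these changes was not tested.

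Signs turned for members that were not called. At 4 weeks Rpl12 ran from -0.08 to 0.51 without 1 array. At 10 weeks averaging the probe sets of a gene gave 0.12 for Rpl22 and 0.04 for Rps24, and leaving out shared sequence 0.21 for Rps24. Quantile normalization again gave 0.09 for Rplp0, -0.02 for Rps27, 0.05 for Rps29 and 0.09 for Rps24, and centring gave -0.01 for Rps27. Without both arrays Rplp0 was at 0.08, Rpl22 at 0.02, Rps29 at 0.09, Rps24 at 0.44, Rpl37a at 0.14 and Rpl14 at 0.21. Without 1 array Rplp0 ran from -0.29 to 0.08, Rps27 from -0.04 to 0.05, Rps29 from -0.23 to 0.10, Rps24 from -0.34 to 0.25, Rpl14 from -0.40 to 0.03, Rpl39 from -0.14 to 0.20, Rps4x from -0.15 to 0.19 and Rps16 from -0.01 to 0.07. With probe sets of several genes Rps27 was at -0.22, and the difference between ages of Rps6 at 0.02.

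With the replicate number as a block, 6 members were called at 10 weeks (Rpl4 and Rps4l higher, Rplp2, Rps19, Rps27l and Rps3 lower), 1 in the difference between ages (Rps27l, -1.2, limma adjusted p 0.0325) and 3 from 4 to 10 weeks in KO hearts. The numbers are not known to pair the mice. The main fit called 12.1% of all genes at 10 weeks, and the share called with the block is not given here. Nor is it given for probe sets tested singly or for the 10-week arrays alone, so those counts are not set against it.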
